A study of Mus musculus with 2 samples.

Results

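The lipid synthesis genes described here are 33 genes of fatty acid and cholesterol synthesis and its control, picked by symbol from a list and not by their measured values, out of 33963 genes in the count table. They fall into a fatty acid arm of 12 genes, a sterol arm of 15 genes, 4 regulators and 2 carnitine palmitoyltransferases, which belong to fatty acid oxidation. Single-cell RNA-seq was performed on mouse cells at 5 stages of the return of primed epiblast stem cells to the naive state under activation of AMPK, the kinase that senses a low energy state. Reads were summed over the cells of a group and scaled to a total of 1000000, and a level in this unit is given as CPM.

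All cells were labelled as strain 129/Ola. The naive group was mouse embryonic stem cells (mESCs) with a Rex1-GFP reporter, cultured in 2iL, that is, with LIF (leukemia inhibitory factor) and inhibitors of MEK and GSK3. The primed group was mouse epiblast stem cells (mEpiSCs) of the line Oct4GIP, which carries a GFP reporter driven by the Oct4 promoter and enhancer, cultured on feeder fibroblasts with FGF2 and Activin A. The d8 and d16 groups were primed cells treated for 8 or 16 days with AICAR, an AMPK activator, and LIF. Their medium held serum, and by the study's methods they were plated on feeder fibroblasts before the treatment. The study states that these feeder cells were needed during the 16 days. The d16+10p group was d16 cells expanded for 10 passages in 2iL. The groups therefore differed in medium, serum and feeder cells as well as in AICAR, and no untreated sample of day 8 or day 16 was measured, so these cannot be told apart. The naive cells were also of another line than all other groups, which derived from Oct4GIP, and the study states that these lines differ in genomic background. In comparisons with naive cells, line and state cannot be told apart. Each group was 1 tagged sample of 1 pooled library. There was no replicate and no test, the intervals given are 95% intervals of the read counts alone, and because amplified reads of a molecule are not independent they cover counting error only.

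The tags assigned 801 cells to the naive group, 1826 to primed, 9627 to d8, 4315 to d16 and 1151 to d16+10p, with 17245249 to 179944974 reads per group and no barcode under more than 1 tag. By the tag list, 500 naive and 500 primed cells were loaded, fewer than were found under these tags, and 27.2% of the primed-tagged cells had Pou5f1, which encodes OCT4 and marks pluripotent cells, at 200 CPM or more, against 61.9% of naive and 65.6% of d16+10p cells. The comparisons of primed with naive, d8 and d16 Dppa5a-high cells are therefore also given, for the 33 genes, with the 497 primed cells at or above that level. These were deeper than all primed cells, with a median of 19004 against 11914 reads, so the gate also selects for depth. The d16 cells were split at 1000 CPM of Dppa5a, a gene of naive pluripotent cells, into 1278 Dppa5a-high and 3037 Dppa5a-low cells. The level of Pou5f1, which was not used in that split, was 317 CPM in naive, 203 CPM in primed, 56.8 CPM in d8, 39.9 CPM in d16 Dppa5a-low, 345 CPM in d16 Dppa5a-high and 341 CPM in d16+10p cells. It was low in the d8 and Dppa5a-low cells, and in sums over mixed cells, fewer cells of a type and less RNA per cell cannot be told apart.

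Fatty acids are built in the cytosol from acetyl-CoA. Acetyl-CoA carboxylase makes malonyl-CoA, fatty acid synthase joins these units into palmitate, and elongases and desaturases shape the product. Cholesterol is built from the same acetyl-CoA through mevalonate, isoprenoids, squalene and lanosterol. Both arms are transcribed under the SREBP factors, which SCAP carries out of the endoplasmic reticulum and INSIG holds back when sterols are plentiful. AMPK phosphorylates and inhibits acetyl-CoA carboxylase, and malonyl-CoA in turn blocks the carnitine palmitoyltransferase that admits fatty acids to mitochondria. The data are of mRNA and hold no measure of phosphorylation.

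SREBP factors act on promoters together with NF-Y, which binds the CCAAT box, so the promoters of the members were searched for both motifs. RefSeq promoters of GRCm38.p6, each from 250 bases before to 50 bases after the start, were found for 27 of the 33 genes. None was found for Scd1, Scd2, Fads1, Fdps, Fdft1 and Sqle. Some genes had several promoters, and a gene was counted when any of them held the motif. CCAAT, read on both strands, was found for 12 of 12 sterol arm genes, 6 of 9 fatty acid arm genes, 3 of 4 regulators and 1 of 2 carnitine palmitoyltransferases, against 41.1% of 27025 genes. Pmvk and Dhcr7 were among the genes that also had a promoter without CCAAT. The sterol regulatory element TCACNCCAC, as searched on both strands, was found for 1 of the 27 genes, Hmgcs1, against 1.44% of all genes, and CACGTG for 6 of the 27 genes, against 8.09%. The 150 bases before the start are given for the first mevalonate enzyme (Hmgcs1), for 3 further sterol enzymes with more than 1 CCAAT box (Mvk, Mvd, Nsdhl) and for fatty acid synthase (Fasn), with CCAAT boxes of either strand and the sterol regulatory element in capitals.
Hmgcs1, chr13:119690201-119690350, plus strand: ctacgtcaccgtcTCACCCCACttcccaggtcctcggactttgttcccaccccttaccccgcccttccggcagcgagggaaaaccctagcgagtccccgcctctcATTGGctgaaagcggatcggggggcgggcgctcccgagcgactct
Mvk, chr5:114444119-114444268, plus strand: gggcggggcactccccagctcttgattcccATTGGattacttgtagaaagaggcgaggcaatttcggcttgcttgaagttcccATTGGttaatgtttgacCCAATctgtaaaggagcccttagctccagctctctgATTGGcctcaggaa
Mvd, chr8:122443423-122443572, minus strand: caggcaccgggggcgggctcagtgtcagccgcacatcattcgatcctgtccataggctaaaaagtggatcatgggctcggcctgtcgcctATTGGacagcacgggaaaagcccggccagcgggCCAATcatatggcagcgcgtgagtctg
Nsdhl, chrX:72918371-72918520, plus strand: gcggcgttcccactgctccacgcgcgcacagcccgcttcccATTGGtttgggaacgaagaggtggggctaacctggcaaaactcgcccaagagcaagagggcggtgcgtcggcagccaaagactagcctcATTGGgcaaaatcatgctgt
Fasn, chr11:120824548-120824697, minus strand: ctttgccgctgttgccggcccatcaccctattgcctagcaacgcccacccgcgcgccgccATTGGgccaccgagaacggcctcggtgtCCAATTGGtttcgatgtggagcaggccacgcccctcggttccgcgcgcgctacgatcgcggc
The element of Hmgcs1 begins 137 bases before the start. A match is a stretch of letters and was not tested as a binding site.

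The fatty acid arm held the member with the widest range between groups, Scd1, which encodes a desaturase that places a double bond in saturated fatty acids. Scd1 stood at 92.7 CPM (88.2 to 97.4) in naive, 7.61 CPM (6.62 to 8.70) in primed, 10.1 CPM (9.65 to 10.6) in d8, 15.5 CPM (14.2 to 16.8) in d16 Dppa5a-low, 23.1 CPM (21.1 to 25.3) in d16 Dppa5a-high and 88.3 CPM (84.8 to 92.0) in d16+10p cells. The naive and d16+10p cells were high with overlapping intervals, and the other groups were all below them. Its neighbour Scd2, a second desaturase, lies on the same chromosome, with Scd2 at chr19:44293674-44306864 on the plus strand and Scd1 at chr19:44394455-44407879 on the minus strand (GRCm38). Scd2 stood at 614 CPM in naive, 809 CPM in primed, 273 CPM in d8, 795 CPM in d16 Dppa5a-low, 299.6 CPM in d16 Dppa5a-high and 526 CPM in d16+10p cells, and was highest where Scd1 was lowest. Scd1 made up 13.1% of the reads of both genes in naive (12.5% to 13.7%), 0.932% in primed (0.811% to 1.07%), 3.58% in d8, 1.91% in d16 Dppa5a-low, 7.16% in d16 Dppa5a-high (6.55% to 7.80%) and 14.4% in d16+10p cells (13.8% to 14.9%). The share in d16 Dppa5a-high cells lay between that of primed and that of naive cells, outside the counting interval of either. Of 50-base windows of Scd1, 4.56% also occur in another gene, and of Scd2, 3.97%.

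The enzymes that start and end the chain moved less than Scd1. Acly, which makes cytosolic acetyl-CoA from citrate, stood at 173 CPM in naive, 125 CPM in primed, 81.9 CPM in d8, 100.4 CPM in d16 Dppa5a-low, 161 CPM in d16 Dppa5a-high and 189 CPM in d16+10p cells. Fasn, fatty acid synthase, stood at 112, 108, 38.6, 52.1, 74.8 and 125 CPM in the same order. Among these groups, both were lowest at d8 and highest in d16+10p cells. Among cells with Pou5f1 at 200 CPM or more, however, Fasn was highest in primed cells, at 161 CPM (153 to 169). The d16+10p cells past that gate had 132 CPM (127 to 137) of Fasn, and the gated naive cells had 120 CPM. Acly remained highest in d16+10p cells with the gate, at 199 CPM against 143 CPM in gated primed cells. Elovl6, which lengthens palmitate, was unlike Acly and Fasn in that its level was highest in d16 Dppa5a-high cells, at 224 CPM (217 to 230.2). It stood at 124 CPM in naive, 114 CPM in primed, 54.5 CPM in d8, 53.9 CPM in d16 Dppa5a-low and 164 CPM in d16+10p cells. Fads1 and Fads2, desaturases of polyunsaturated fatty acids, were highest in d16 Dppa5a-low cells, at 163 and 152 CPM, and lowest in d16 Dppa5a-high cells, at 48.5 and 41.5 CPM. Elovl1, which lengthens very long saturated chains, was highest at d8, at 37.8 CPM, and lowest in d16+10p cells, at 12.9 CPM. Elovl5, an elongase of polyunsaturated fatty acids, ranged from 28.7 CPM at d8 to 46.8 CPM in d16 Dppa5a-low cells. Acaca, the cytosolic acetyl-CoA carboxylase, ranged from 15.2 CPM at d8 to 27.2 CPM in primed cells, but 30.4% of its 50-base windows also occur in other genes, so its reads are uncertain. Acacb, the carboxylase at the mitochondrial surface, was under 10 CPM in every group, from 1.35 CPM at d8 to 6.61 CPM in naive cells, and entered no comparison. Acss2, which makes acetyl-CoA from acetate, was below 10 CPM in naive, primed and d8 cells and between 11.9 and 13.1 CPM in the d16 and d16+10p groups.

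**Figure D1:**
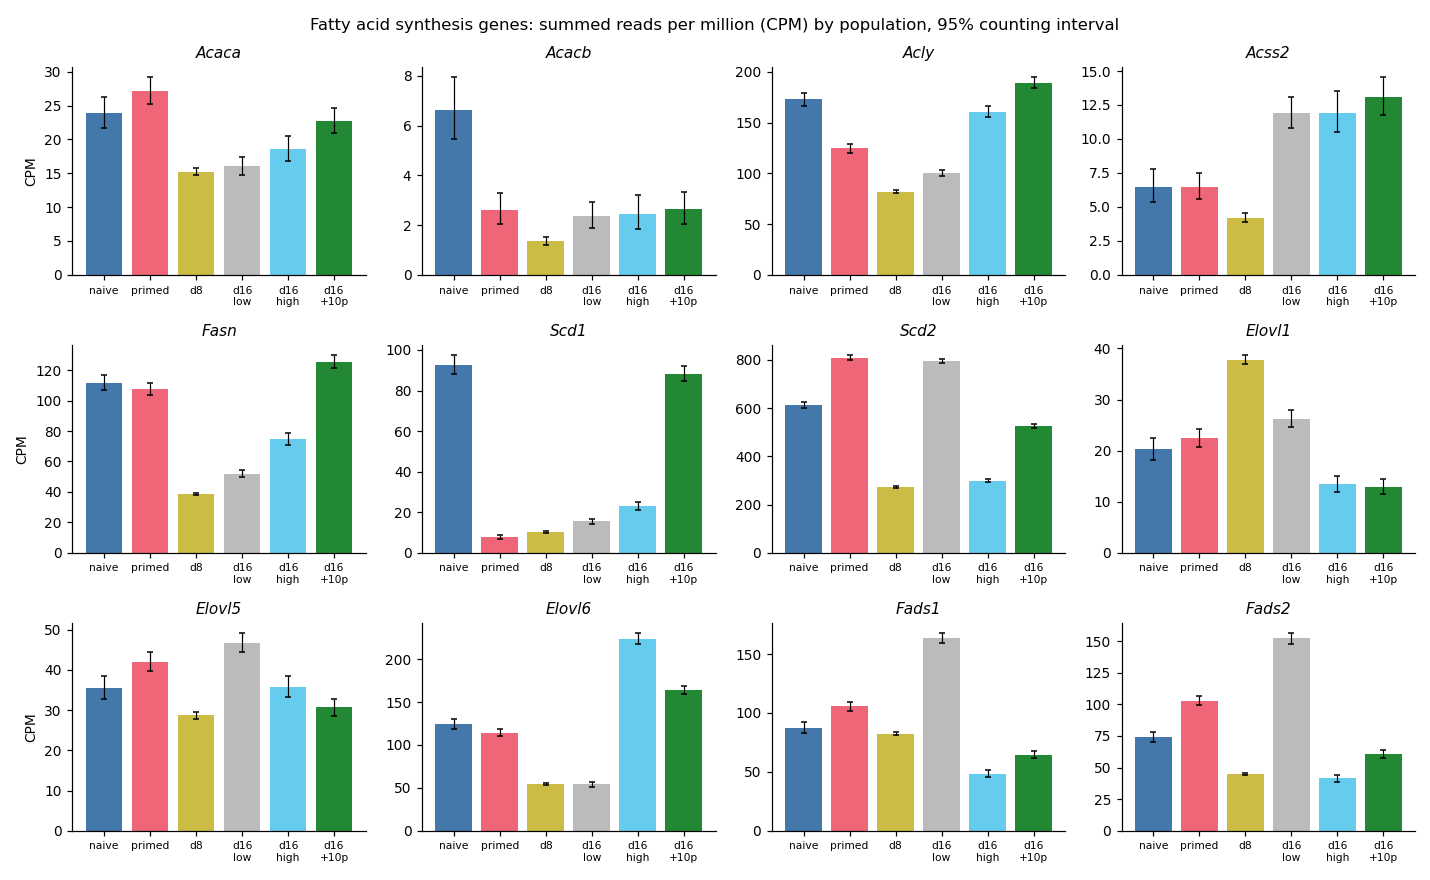
Summed level in CPM (vertical axis, from 0, one scale per gene) of the 12 fatty acid arm genes in 6 groups of cells, with bars for the level and whiskers for the 95% counting interval. Scd1 is high in naive and d16+10p cells (92.7 and 88.3 CPM), Elovl6 is highest in d16 Dppa5a-high cells (224 CPM), and 7 of the 12 genes are lowest at d8. How often d8 was lowest over all genes was not counted.

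In the sterol arm, d8 was the lowest group for 11 of the 15 genes and primed the highest for 8 of 15. How often d8 was lowest or primed highest over all genes was not counted, so these counts describe the members only. They take all primed-tagged cells, whose Oct4-negative part the study considered to be feeder cells. Levels in the Pou5f1-gated primed cells are given below where they change the highest group. Hmgcs1, whose product makes HMG-CoA, stood at 180.1 CPM (174 to 186) in naive, 273 CPM (267 to 279) in primed, 124 CPM (122 to 125) in d8, 290 CPM (284 to 295) in d16 Dppa5a-low, 194 CPM (188 to 200) in d16 Dppa5a-high and 185 CPM (179.6 to 190.1) in d16+10p cells. Its intervals overlapped between naive and d16+10p cells and between d16 Dppa5a-high and d16+10p cells. Idi1, which isomerises the isoprenoid unit made from mevalonate, stood at 87.3 CPM (82.9 to 91.8) in naive, 106 CPM (102 to 110) in primed, 34.3 CPM (33.4 to 35.2) in d8, 40.5 CPM (38.5 to 42.7) in d16 Dppa5a-low, 85.8 CPM (81.8 to 89.9) in d16 Dppa5a-high and 91.9 CPM (88.3 to 95.7) in d16+10p cells. Idi1 was thus low in the groups low in Pou5f1, whereas Hmgcs1, from the same pathway, was highest in one of them among these groups. In the Pou5f1-gated primed cells, however, Hmgcs1 stood at 359 CPM (347 to 370), above its level in d16 Dppa5a-low cells. Idi1 stood at 177 CPM (169 to 185) in the gated primed cells. Fdps, farnesyl diphosphate synthase, stood at 188 CPM in naive, 198 CPM in primed, 79.1 CPM in d8, 87.1 CPM in d16 Dppa5a-low, 113 CPM in d16 Dppa5a-high and 191 CPM in d16+10p cells. Idi1, Fdps and Fdft1, squalene synthase, share 25.3%, 26.2% and 26.5% of their 50-base windows with other genes, and their reads are uncertain to that extent. Fdft1 ranged from 59.3 CPM at d8 to 106 CPM in naive cells.

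Mvk, Pmvk and Mvd, the kinases and the decarboxylase that convert mevalonate, were lowest at d8, at 6.91, 17.3 and 11.9 CPM, and highest at 18.5 CPM in primed, 33.1 CPM in naive and 25.4 CPM in d16+10p cells. In Pou5f1-gated primed cells they stood higher, at 25.3, 40.0 and 33.4 CPM. Among gated cells, Pmvk stood at 34.1 CPM in naive and Mvd at 24.8 CPM in d16+10p cells. Sqle, squalene epoxidase, ranged from 43.8 CPM in d16 Dppa5a-high to 78.8 CPM in primed cells. Lss, which closes the rings to lanosterol, ranged from 14.7 CPM at d8 to 34.2 CPM in primed cells. Cyp51, Msmo1 and Nsdhl, which take methyl groups off lanosterol, were all highest in primed cells, at 106, 152 and 43.3 CPM, and lowest at 60.8 CPM in d16 Dppa5a-low, 87.4 CPM at d8 and 18.6 CPM at d8. Sc5d, a desaturase of a late step, ranged from 24.5 CPM in d16 Dppa5a-high to 42.1 CPM in d16 Dppa5a-low cells, and Dhcr7, which catalyses a last step to cholesterol, from 9.19 CPM at d8 to 17.3 CPM in naive cells. In Pou5f1-gated primed cells Dhcr7 stood higher, at 20.3 CPM (17.7 to 23.2). Gated naive cells had 17.04 CPM (14.8 to 19.5) of Dhcr7, with overlapping intervals. Hsd17b7, which reduces the ketone formed during demethylation, was the one sterol arm gene highest at d8. It stood at 44.5 CPM in naive, 68.1 CPM in primed, 79.0 CPM in d8, 67.5 CPM in d16 Dppa5a-low, 41.5 CPM in d16 Dppa5a-high and 36.1 CPM in d16+10p cells.

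**Figure D2:**
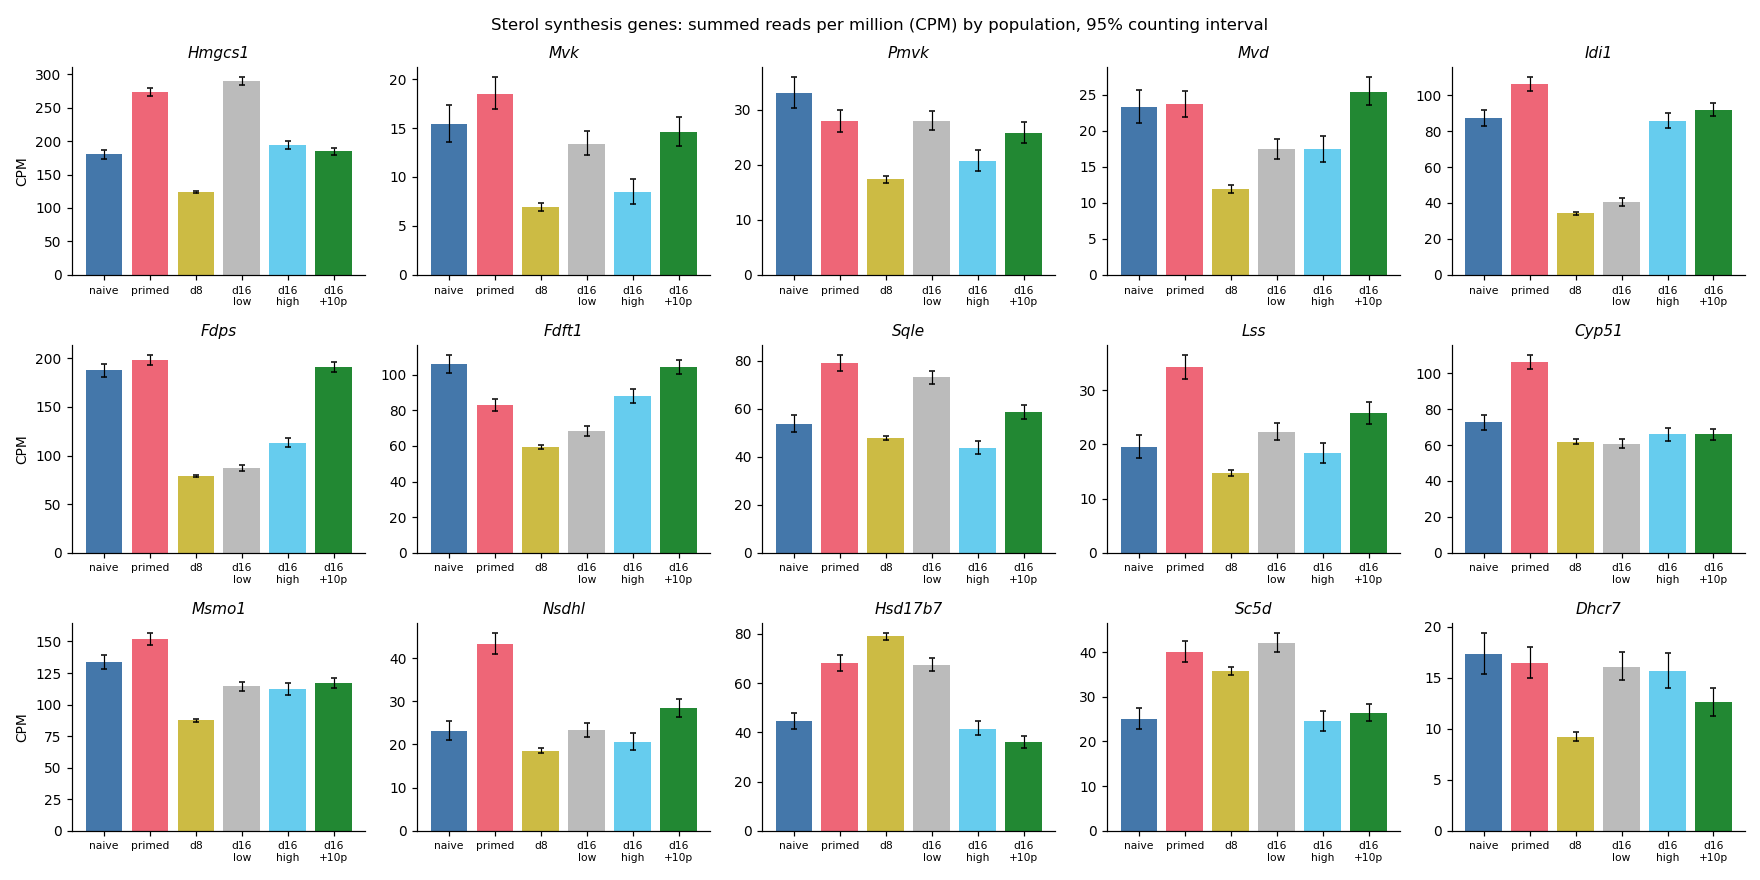
Summed level in CPM (vertical axis, from 0, one scale per gene) of the 15 sterol arm genes in 6 groups of cells, with bars for the level and whiskers for the 95% counting interval. The d8 bar is the lowest for 11 of the 15 genes, and Hsd17b7 is the gene with its highest bar at d8 (79.0 CPM). How often d8 was lowest over all genes was not counted.

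The regulators did not move as 1 group. Insig1, whose product retains SREBP and which is itself a target of SREBP, stood at 79.8 CPM (75.6 to 84.1) in naive, 37.5 CPM in primed, 24.5 CPM in d8, 31.9 CPM in d16 Dppa5a-low, 75.8 CPM (72.1 to 79.6) in d16 Dppa5a-high and 88.5 CPM (85.0 to 92.2) in d16+10p cells. It was high in the naive, d16 Dppa5a-high and d16+10p cells and low in the other groups, primed included. Srebf1, which encodes the factor tied mainly to fatty acid genes, was highest in d16 Dppa5a-low cells, at 66.3 CPM, and lowest in d16 Dppa5a-high and d8 cells, at 27.7 and 28.8 CPM. Srebf2, the factor tied mainly to sterol genes, ranged from 68.6 CPM at d8 to 119 CPM in d16 Dppa5a-low cells. Scap, the escort of SREBP, was highest at d8, at 69.3 CPM, against 29.2 to 49.0 CPM in the other groups. Cpt1a, the outer carnitine palmitoyltransferase and the entry step to oxidation in mitochondria, stood at 95.04 CPM in naive, 77.9 CPM in primed, 123 CPM in d8, 86.7 CPM in d16 Dppa5a-low, 105 CPM in d16 Dppa5a-high and 103 CPM in d16+10p cells. Cpt2, its inner partner, ranged from 10.1 CPM in d16+10p to 19.3 CPM in d16 Dppa5a-low cells.

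**Figure D3:**
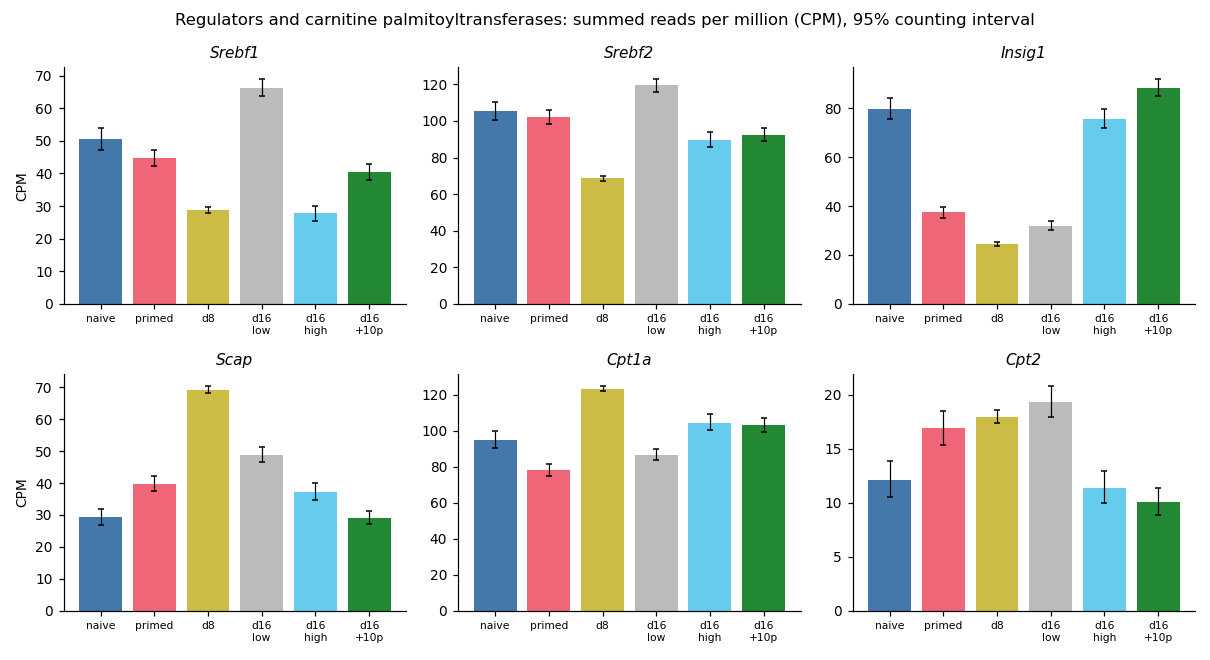
Summed level in CPM (vertical axis, from 0, one scale per gene) of 4 regulators and 2 carnitine palmitoyltransferases in 6 groups of cells, with bars for the level and whiskers for the 95% counting interval. Insig1 is high in naive, d16 Dppa5a-high and d16+10p cells (75.8 to 88.5 CPM), and Scap and Cpt1a are highest at d8 (69.3 and 123 CPM).

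Comparisons between groups were limited to genes that reached 10 CPM in one group or the other. A gene was counted as past 2-fold when its log2 ratio, with 1 CPM added to both levels, was at least 1 or at most -1, and folds of single genes are given without the added value. The first comparison, primed against naive, sets the starting state beside the goal of the reversion, the latter in cells of another line. Of 31 members compared, 0 were past 2-fold higher in primed cells and 2 past 2-fold lower, beside 3.55% and 4.69% of all genes compared. Scd1 was 12.2-fold lower in primed cells (10.6 to 14.1), and Insig1 was 2.13-fold lower (1.96 to 2.31). The next largest difference was that of Nsdhl, 1.87-fold higher in primed cells (1.67 to 2.10). The median log2 ratio was 0.16 in the fatty acid arm and 0.28 in the sterol arm, beside 0.08 over all genes compared. In the sterol arm 12 of 15 genes were above 0, beside 6089 of all 10549 genes compared. When both groups were limited to cells with Pou5f1 at 200 CPM or more, 2 sterol genes were past 2-fold higher in primed cells, beside 4.21% of all genes. These were Lss, 2.33-fold (2.00 to 2.72), and Nsdhl, 2.36-fold (2.05 to 2.72), and the median of the sterol arm was 0.67. Scd1 and Insig1 remained the only members past 2-fold lower, beside 6.11% of all genes. The 2 groups of Pou5f1-gated cells differed in Scd1 by 16.3-fold (12.8 to 21.1).

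The second comparison, d8 against primed, covers the first 8 days under AICAR and LIF. Of 31 members, 10 were past 2-fold lower at d8 and 0 past 2-fold higher, beside 3.28% of all genes lower and 3.53% higher. The median log2 ratio was -0.70 in the fatty acid arm and -0.79 in the sterol arm, beside -0.02 over all genes. In the sterol arm 14 of 15 genes were below 0, all but Hsd17b7, beside 5403 of all 10403 genes compared. Of the 6 sterol genes past 2-fold, Idi1 was 3.09-fold lower at d8 (2.96 to 3.23), Mvk 2.68-fold (2.41 to 2.97), Fdps 2.50-fold (2.42 to 2.58), Lss 2.33-fold (2.16 to 2.51), Nsdhl 2.33-fold (2.18 to 2.49) and Hmgcs1 2.20-fold (2.15 to 2.26). Of the 4 fatty acid genes, Scd2 was 2.97-fold lower (2.92 to 3.01), Fasn 2.79-fold (2.67 to 2.92), Fads2 2.29-fold (2.20 to 2.39) and Elovl6 2.10-fold (2.02 to 2.19). Against the Pou5f1-gated primed cells, 17 members were past 2-fold lower at d8, beside 7.52% of all genes, and 3 past 2-fold higher, beside 10.6%. The 3 higher were Cpt1a, 2.30-fold (2.12 to 2.51), Elovl1, 2.15-fold (1.86 to 2.51), and Scap, 2.06-fold (1.85 to 2.29). Of those lower, Idi1 was the farthest, at 5.15-fold (4.88 to 5.42), from 177 CPM in the gated primed cells. The summed level of the fatty acid arm was 1472 CPM in primed and 672 CPM in d8 cells, 2.19-fold lower at d8 (2.17 to 2.22), of which Scd2 held a large part. Without Scd2 it was 1.66-fold lower (1.64 to 1.69), and the sum of the sterol arm was 1.85-fold lower (1.82 to 1.87). Against the Pou5f1-gated primed cells these sums were lower at d8 by 2.75-fold, 1.97-fold without Scd2 and 2.44-fold for the sterol arm, the last with a median log2 ratio of -1.21.

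Markers of other cell types moved with this difference. The summed level of 6 macrophage markers was 3241 CPM at d8 and 307 to 1033 CPM in the other groups, that of 6 epithelial markers 2641 CPM against 503 to 1216 CPM, and that of 5 smooth muscle markers 1167 CPM against 252 to 639 CPM. That of 6 fibroblast markers was 1713 CPM at d8, 1641 CPM in primed and 3377 CPM in d16 Dppa5a-low cells. No gene of these 4 lists was at 0 in any group. The part of these cells in the lower levels at d8 was not tested. Adipocyte and hepatocyte markers, which would mark cells with very high lipid synthesis, summed to 21.7 to 40.5 CPM in every group, with Adipoq and Alb under 1 CPM throughout. Lyz2, a macrophage gene, stood at 754 CPM also in the naive group, and the source of these reads was not tested.

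The d16 Dppa5a-high cells were compared with primed cells as the d16 cells that carried a naive marker. Of 32 members, 1 was past 2-fold higher and 5 past 2-fold lower, beside 6.49% and 4.78% of all genes. Scd1 was 3.04-fold higher (2.58 to 3.59), from 7.61 to 23.1 CPM. The lower members were Scd2, 2.70-fold (2.62 to 2.78), Fads2, 2.48-fold (2.30 to 2.68), Mvk, 2.19-fold (1.84 to 2.61), Fads1, 2.18-fold (2.03 to 2.34), and Nsdhl, 2.10-fold (1.88 to 2.34). The median log2 ratio was -0.52 in the fatty acid arm and -0.68 in the sterol arm, beside -0.04 over all genes. Of the sterol genes, 14 of 15 were below 0, beside 5769 of all 10716 genes compared. Without Scd2 the summed level of the fatty acid arm was 654 CPM in d16 Dppa5a-high and 664 CPM in primed cells, within counting error. Against the 787 CPM of the Pou5f1-gated primed cells it was 1.20-fold lower (1.17 to 1.24), outside counting error. In the comparison with these gated cells, 10 members were past 2-fold lower and 1 higher, beside 2.86% and 7.37% of all genes. Fasn, Idi1, Fdps, Sqle and Lss were among the lower members in that comparison and not in the other, with Fasn at 2.15-fold (2.01 to 2.31) and Lss at 2.63-fold (2.30 to 3.01).

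Within the d16 sample, the Dppa5a-high and Dppa5a-low cells shared medium, day and tag, and differed in depth, with a median of 14255 and 8691 reads per cell. Of 32 members, 3 were past 2-fold higher in the Dppa5a-high cells and 4 past 2-fold lower, beside 11.2% and 16.6% of all genes, so the members were not called more often than other genes. Elovl6 was 4.15-fold higher (3.94 to 4.38), Insig1 2.37-fold (2.20 to 2.56) and Idi1 2.12-fold (1.97 to 2.27). Fads2 was 3.67-fold lower (3.41 to 3.94), Fads1 3.37-fold (3.15 to 3.60), Scd2 2.65-fold (2.58 to 2.73) and Srebf1 2.39-fold (2.18 to 2.62). Elovl6 was the exception among the elongases, since Elovl5, at 35.7 against 46.8 CPM, and Elovl1, at 13.4 against 26.3 CPM, were lower in Dppa5a-high cells, and Scd1 was the exception among the desaturases, at 23.1 against 15.5 CPM. The median log2 ratio was 0.00 in the fatty acid arm and -0.17 in the sterol arm, beside -0.03 over all genes. In cells thinned to 5000 reads these medians were -0.43 and -0.36. Dppa5a-low cells had 3377 CPM of fibroblast and 762 CPM of neural markers, against 545 and 373 CPM in the Dppa5a-high cells, and the part of these cells in the difference was not tested.

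The comparison of d16+10p with naive cells asks how close the expanded cells came to mESCs of another line kept in the same kind of medium. Of 32 members, 0 were past 2-fold in either direction, beside 0.862% of all genes higher and 0.614% lower. The 3 largest log2 ratios were those of Acss2, at 13.1 against 6.49 CPM or 2.01-fold higher in d16+10p cells (1.62 to 2.51), of Elovl1, 1.57-fold lower (1.34 to 1.82), and of Fads1, 1.35-fold lower (1.26 to 1.45). The log2 ratio of Acss2 was 0.91 with 1 CPM added. The median was -0.07 in the fatty acid arm and 0.03 in the sterol arm, beside -0.00 over all genes, and the sterol sums of 1009 and 1022 CPM differed within counting error. When both groups were limited to cells with Pou5f1 at 200 CPM or more, again 0 of 32 members were past 2-fold, beside 0.992% of all genes higher and 0.962% lower, and the median of the sterol arm was -0.05. Against d16 Dppa5a-high cells, 1 member was past 2-fold higher in d16+10p cells and 0 lower, beside 0.557% and 1.63% of all genes. Scd1 was 3.82-fold higher (3.46 to 4.23). Scd2 was 1.75-fold higher (1.70 to 1.81) and Fdps 1.69-fold (1.60 to 1.77). The median log2 ratio was 0.28 in the fatty acid arm and 0.24 in the sterol arm, beside -0.04 over all genes. At 50 CPM or more the arm medians were 0.53 and 0.10. Of the sterol genes, 12 of 15 were above 0, beside 4409 of all 10227 genes compared. Against naive cells, the d16 Dppa5a-high cells had 0 of 32 members past 2-fold higher and 2 lower, beside 2.66% and 0.977% of all genes. Scd1 was 4.01-fold lower (3.62 to 4.45) and Scd2 2.05-fold lower (1.98 to 2.11). The comparisons share groups, so their values are given side by side and not as independent evidence.

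**Figure D4:**
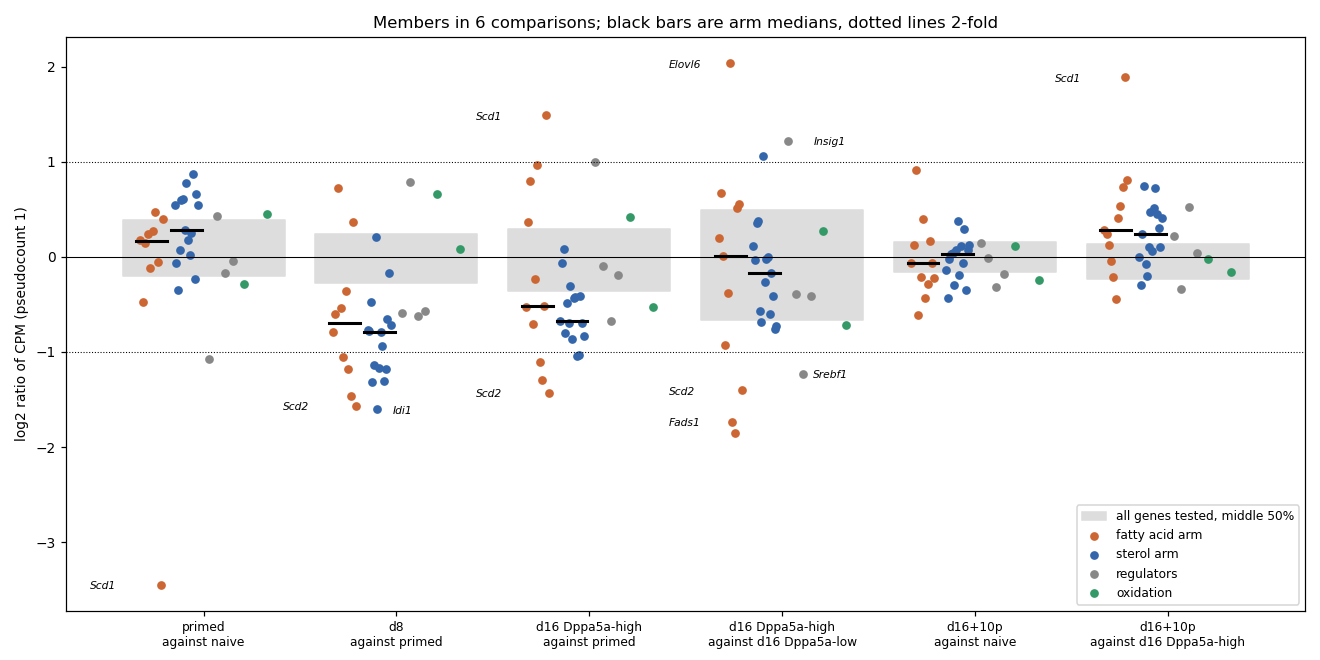
Log2 ratio of CPM (vertical axis, 1 CPM added) in 6 comparisons of each member that reached 10 CPM in either group. Each point is a member coloured by arm, with black bars for the medians of the fatty acid and sterol arms. Grey boxes are the middle 50% of all genes compared, and dotted lines are at 2-fold. At d8 against primed, both medians (-0.70 and -0.79) lie below the grey box. In d16+10p against naive cells all members compared lie between the dotted lines.

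Between the groups low in Pou5f1, d8 and d16 Dppa5a-low, the levels of some members differed although both samples were in AICAR and LIF. Of 32 members, 5 were past 2-fold higher in d16 Dppa5a-low than in d8 cells and 0 lower, beside 8.96% and 2.84% of all genes. Fads2 was 3.39-fold higher (3.27 to 3.51), Scd2 2.91-fold (2.87 to 2.96), Acss2 2.82-fold (2.50 to 3.19), Hmgcs1 2.34-fold (2.28 to 2.39) and Srebf1 2.30-fold (2.19 to 2.42). Thrsp, a gene tied to lipid synthesis that is no member, stood at 14.0 CPM in d16 Dppa5a-low cells, 1.67 CPM at d8 and 2.12 CPM in primed cells. These cells differed in kind as well as in day, which cannot be told apart here. Against primed cells, 4 of 32 members were past 2-fold lower in d16 Dppa5a-low cells and 0 higher, beside 2.79% and 7.93% of all genes. Idi1 was 2.61-fold lower (2.45 to 2.79), Fdps 2.27-fold (2.17 to 2.38), Elovl6 2.12-fold (2.01 to 2.25) and Fasn 2.07-fold (1.95 to 2.19). Without the split on Dppa5a, all d16 cells had 5 of 32 members past 2-fold higher than d8 cells and 0 lower, beside 8.52% and 3.68% of all genes, and 1 higher (Scd1) and 1 lower (Fdps) than primed cells, beside 5.43% and 0.888%.

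Because the d8 sample held several kinds of cells, its cells were ranked on marker lists that hold no member, and the 481 cells (5%) highest in each list were summed. These cells are a range of a score and not a cell type. Of the 30 members compared in the cells highest in pluripotency markers, 1 was past 2-fold higher than in the other d8 cells and 0 lower, beside 2.3% and 2.73% of all genes. This was Elovl6, at 111 against 52.2 CPM, 2.13-fold (1.97 to 2.29). In the cells highest in fibroblast markers, Scd1 was 2.39-fold higher (2.07 to 2.75), at 22.4 against 9.37 CPM, and Elovl6 2.25-fold lower, beside 5.69% of all genes higher and 7.41% lower. In the cells highest in macrophage markers, 1 member was past 2-fold higher and 3 past 2-fold lower, beside 7.67% and 22.7% of all genes. Dhcr7 was higher, at 19.2 against 8.62 CPM, and Elovl6, Fads2 and Hsd17b7 were lower, with Elovl6 at 20.1 against 56.5 CPM. The median log2 ratio in these cells was -0.73 in the fatty acid arm, -0.29 in the sterol arm and -0.40 over the members compared, beside -0.57 over all genes. In the cells highest in epithelial, smooth muscle and neural markers, 0 of 29, 30 and 29 members were past 2-fold, beside 1.79%, 2.06% and 0.697% of all genes higher and 4.85%, 3.89% and 1.4% lower.

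Hsd17b7 had the largest difference of any member in these rankings. In the d8 cells highest in primed epiblast markers it stood at 445 CPM (429 to 461) against 64.8 CPM in the other d8 cells, 6.87-fold higher (6.60 to 7.15), and in the cells of the other 6 rankings at 31.3 to 76.0 CPM. It was the one member past 2-fold in that ranking, beside 3.66% of all genes higher and 5.19% lower. The cell with the most reads of Hsd17b7 held 2.04% of them, so no single cell carried the value. By their levels these cells were led by T, the Brachyury gene of mesoderm and notochord, at 1016 against 37.4 CPM, and by Fgf5, an epiblast growth factor, at 448 against 59.2 CPM, and they are named here only by these genes. In d16 Dppa5a-low cells the 152 cells highest in the same list had Hsd17b7 at 198 CPM (178 to 219) against 60.1 CPM, 3.29-fold higher (2.94 to 3.68), beside 1.37% of all genes higher and 2.44% lower, with T at 414 against 21.1 CPM. Hsd17b7 shares no 50-base window with another gene.

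**Figure D5:**
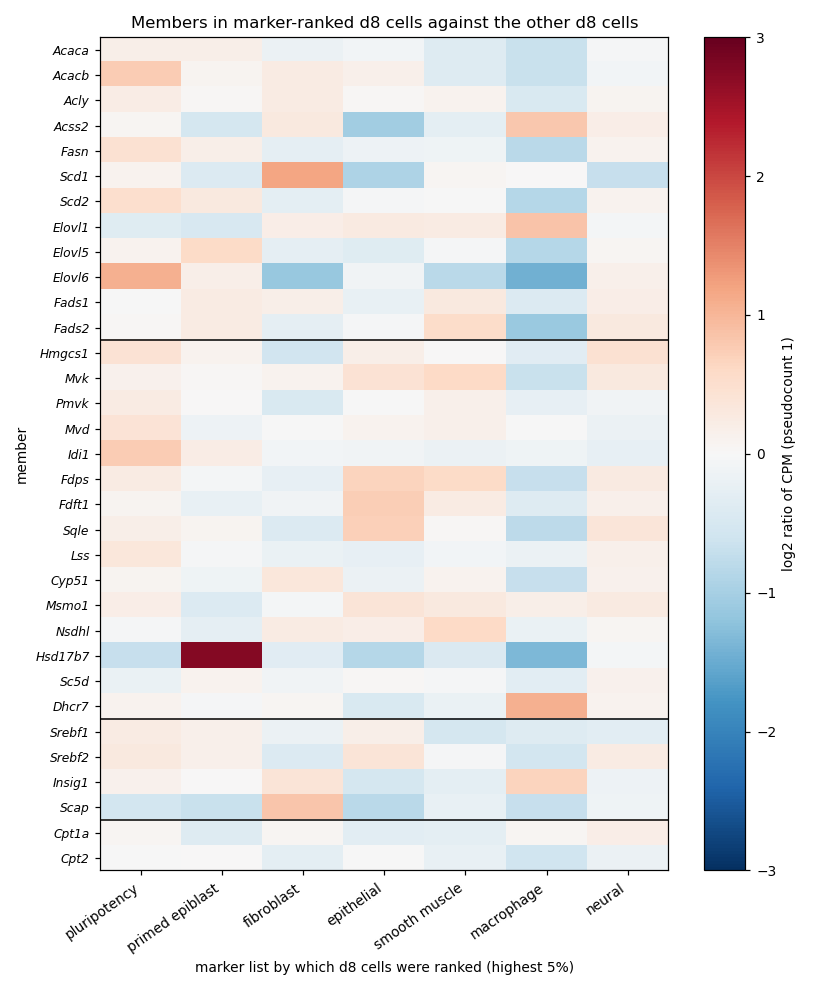
Log2 ratio of CPM (colour, 1 CPM added, red higher) of the 33 members (rows, by arm) in the d8 cells highest in each of 7 marker lists (columns) against the other d8 cells. Hsd17b7 in the cells highest in primed epiblast markers is the strongest colour (445 against 64.8 CPM). The macrophage column is mostly blue, with a median of -0.40 over the members compared, beside -0.57 over all genes.

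In the d16 Dppa5a-low cells highest in neural markers, 152 cells, 0 of 32 members were past 2-fold, beside 2.86% of all genes higher and 4.26% lower, while the median was 0.47 in the fatty acid arm and 0.35 in the sterol arm against -0.04 over all genes. Scd2 stood at 1147 against 780 CPM in the other Dppa5a-low cells, Hmgcs1 at 430 against 284 CPM, Fads2 at 228 against 149 CPM and Srebf1 at 108 against 64.5 CPM. Elovl6 was lower, at 29.2 against 54.9 CPM. In the cells highest in fibroblast markers the median was -0.13 in the fatty acid arm and -0.62 in the sterol arm against -0.19 over all genes. There, 2 sterol genes were past 2-fold lower and 0 members higher, beside 11.6% and 5.03% of all genes. These were Nsdhl, at 7.71 against 24.0 CPM, and Mvd, at 7.71 against 17.8 CPM, each from 10 reads. In the cells highest in pluripotency markers, 1 member, Scd1, was past 2-fold lower and 0 higher, beside 2.97% and 4.53% of all genes, at 6.25 CPM from 10 reads against 15.9 CPM. In those highest in epithelial markers this was Acss2, at 5.53 against 12.5 CPM, beside 6.33% of all genes lower and 2.59% higher. In those highest in smooth muscle and macrophage markers, 0 of 32 members were past 2-fold, beside 1.71% and 3.35% of all genes higher and 2.52% and 2.87% lower.

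Other genes of the same pathways were taken from lists of 16 sterol, 16 fatty acid and 13 oxidation genes. At d8 against primed, 1 of 15 other sterol genes compared was past 2-fold lower and 0 higher, beside 3.28% and 3.53% of all genes, with a median log2 ratio of -0.08. Of the other fatty acid and oxidation genes, 0 of 9 and 0 of 11 were past 2-fold at d8, beside the same shares of all genes, with medians of 0.13 and 0.24.

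In primed against naive cells, Soat1, which esterifies cholesterol, was 2.16-fold higher (1.99 to 2.35), the one other sterol gene of 15 past 2-fold, beside 3.55% of all genes higher. Acsl1, which activates fatty acids, was 2.75-fold lower (2.32 to 3.26), Elovl7, an elongase, 2.44-fold lower (1.94 to 3.07) and Acadm, an acyl-CoA dehydrogenase of oxidation, 2.84-fold lower (2.62 to 3.09). These were 2 of 11 other fatty acid and 1 of 11 other oxidation genes, beside 4.69% of all genes lower. In d16 Dppa5a-high against primed cells, Fabp3, a fatty acid binding protein, was 3.34-fold higher (3.12 to 3.57), Acsl1 2.58-fold higher (2.19 to 3.04), Fabp5 2.14-fold lower (2.06 to 2.22) and Soat1 2.53-fold lower (2.33 to 2.75). These were 2 higher and 1 lower of 11 other fatty acid genes and 1 lower of 15 other sterol genes, beside 6.49% of all genes higher and 4.78% lower. In d16 Dppa5a-high against Dppa5a-low cells, Fabp3 was 4.24-fold (3.97 to 4.54) and Acsl1 3.18-fold higher (2.70 to 3.75), while Thrsp was 3.10-fold lower (2.48 to 3.91), Fabp5 3.09-fold (2.99 to 3.20) and Mid1ip1, a partner of acetyl-CoA carboxylase, 2.88-fold (2.54 to 3.26), of 12 other fatty acid genes. Soat1, the cholesterol exporter Abca1 and the dehydrogenase Acadl were lower by 2.04-fold, 2.33-fold and 2.31-fold. Over all genes in that comparison, 11.2% were past 2-fold higher and 16.6% lower. In d16+10p against naive cells Fabp3 was 2.27-fold higher (2.13 to 2.42) and Me1, malic enzyme, 2.10-fold lower (1.93 to 2.29), of 11 other fatty acid genes, and 0 of 15 other sterol and 0 of 11 other oxidation genes were past 2-fold. The shares of all genes were 0.862% higher and 0.614% lower.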

How the data were processed

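The deposited table holds raw counts for 17720 cells, each a whole number of reads of a gene in a cell. The study analysed fewer of these cells, after a quality check, whereas all 17720 were kept here. Per the study's methods and the submitters' processing notes, the authors trimmed with cutadapt 2.10, mapped with Bowtie2 2.3.4.1 to Ensembl cDNA and ncRNA of GRCm38, summed reads by gene symbol, and removed low barcodes and doublets. The methods name no molecular identifiers, and no doublet caller was run here. Cells took their group from the tag in their column name. Reads were summed per group, with exact Poisson intervals for levels, exact binomial intervals for shares and ratios, and no test, in Python 3.11.15, NumPy 2.4.6, SciPy 1.17.1 and pandas 2.3.3. The ratios were tested on simulated counts. edgeR 4.0.16 in R 4.3.3 gave only the TMM factors of an alternative scaling. Positions are from GENCODE M21, promoters from RefSeq (GRCm38.p6). All 33 members are named, those past 2-fold or the 3 largest ratios in full, and other pathway genes when past 2-fold, of which some are not reported here. Alternatives were pseudocount, filters, scaling, thinning to 5000 reads, gates and a mean over cells. The members and lists were chosen with earlier results of these data known.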

Additional observations from a re-analysis of the deposited data

How the results depend on the processing

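No paired analysis was possible because each group was 1 sample. Of 64 alternatives for the counts of members past 2-fold, 54 stayed within 1.5 times the count, and 31 of 128 alternatives for the arm medians moved one. With a pseudocount of 10 CPM the counts were 1 for primed against naive, 6 for d8 against primed and 2 for d16 Dppa5a-high against primed. With the mean over cells they were 6 for d8 against primed and 1 for d16+10p against naive, and without a filter on low values 1 for the latter. At 50 CPM or more, 3 members were past 2-fold for d16 Dppa5a-high against primed. With Pou5f1-gated cells the counts were 4, 20 and 11 for primed against naive, d8 against primed and d16 Dppa5a-high against primed. In the highest 2% in place of 5% of cells, 1 member was past 2-fold for fibroblast and 1 for epithelial markers at d8. The shares of all genes higher and lower were 5.63% and 8.22% for fibroblast and 2.19% and 5.48% for epithelial markers. In d16 Dppa5a-low cells, 6 were for pluripotency, 6 for primed epiblast, 5 for fibroblast, 4 for epithelial, 3 for macrophage and 2 for neural markers. Each ranking took 61 cells, where few reads stand behind a value. Of these members, 2 were higher and 4 lower for pluripotency, 1 and 5 for primed epiblast, and 2 and 0 for neural markers. Those for fibroblast, epithelial and macrophage markers were all lower. Of all genes, 10.98% were higher and 8.34% lower for pluripotency, 4.28% and 5.72% for primed epiblast, and 6.52% and 18.4% for fibroblast markers. For epithelial, macrophage and neural markers they were 3.9% and 9.52%, 5.12% and 10.6%, and 5.77% and 8.92%. The fatty acid median of primed against naive was -0.05 at 50 CPM or more, against 0.16, and that of d16 Dppa5a-high against Dppa5a-low, at 0.00, was as low as -0.43 in cells thinned to 5000 reads and -0.45 at 50 CPM or more. The sterol median of the latter was 0.05 at 50 CPM or more, against -0.17, and that of d16+10p against naive -0.05 in Pou5f1-gated cells, against 0.03. At 50 CPM or more the fatty acid median was -1.12 for d8 against primed and -0.81 for d16 Dppa5a-high against primed, and with the mean over cells -0.30 for the latter and 0.13 for the sterol median of primed against naive, which was 0.17 with median-of-ratios scaling. Median-of-ratios scaling shifted primed against naive by -0.11 over all genes and the other comparisons by less. The causes were not tested. With 1 sample per group, depth bounds the counting error and leaves the spread between cultures unknown.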
